A study of Mus musculus with 17 samples.

Results

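The genes described here are those that the spermatogonial stem cell lines and the pluripotent lines of this study had in common and that its somatic samples had little or none of. Spermatogonial stem and progenitor cells (SSCs) renew themselves and give rise to sperm only, whereas embryonic stem cells (ESCs), induced pluripotent stem (iPS) cells and multipotent adult spermatogonial-derived cells (MASCs), which arise from SSCs in long culture, can form tissues of every germ layer. A gene was taken when the mean of its FPKM (fragments per kilobase of transcript, scaled to the library) was at least 5 in SSCs, in MASCs, in ESCs and in iPS cells and under 1 both in the mean of the haematopoietic stem and progenitor cell (HSC) cultures and in mouse embryonic fibroblasts (MEFs). Each gene was represented by its coding transcript with the highest mean over the 17 samples, sex chromosomes were left out, and 13 further genes that met the thresholds were set aside by name, among them Ddx4, Dppa4, Lin28a, Sall4, Utf1, Zfp42, Mael, Piwil2 and Sycp3. The rule left 77 of 19594 gene symbols, out of 6604 with a mean of at least 5 FPKM in all 4 cell types. Since these means chose the genes, their presence in the 4 cell types and their near absence from HSCs and MEFs are descriptions and were not tested.

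Among the 17 mouse samples there were 6 MASC lines, 4 SSC lines, a pair each of ESC lines, iPS lines and HSC cultures, and 1 MEF sample. SSC.1, SSC.2, MASC.1, MASC.2 and ESC.1 had the Oct4-GFP background. SSC.4, MASC.3, MASC.4, ESC.2, both iPS lines and the MEF sample were 129mix, MASC.5 and MASC.6 were Gt(ROSA26)Sor-lacZ, and SSC.3 and both HSC cultures were C57Bl/6J. The SSC lines came from mice over 3 months old and grew for at least 10 passages on MEF feeders with GDNF, bFGF and EGF. Before collection they were left on gelatin for 2 h to remove feeders. MASCs were picked as colonies, and MASC, ESC and iPS lines grew on MEF feeders in ESC medium with LIF for up to 20 passages. The iPS lines were made from tetO-4F2A MEFs (crossed to H3.3B-HA per the labels) of embryonic day 13.5 by doxycycline, and the MEF sample came from H3.3B-HA embryos of that day. HSCs were lineage-negative bone marrow cells grown on endothelial cells that carry E4ORF1. The labels name separate lines but do not say that each came from its own animal, so the p-values measure the spread between these lines.

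Both sides of the comparison draw on one developmental lineage. Primordial germ cells express Oct4 and several other pluripotency regulators, and pluripotent cells in culture in turn transcribe a number of genes named for germ cells and meiosis, many of which are silenced by DNA methylation in somatic tissues. Epithelial adhesion genes such as Epcam are known from both spermatogonia and ESCs.

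The markers of each cell type matched the labels, with limits. Summed over 10 SSC markers the SSC lines had 511 to 722 FPKM and the MASC lines 95.6 to 163, and over 7 pluripotency markers the SSC lines had 7.40 to 114, the MASC lines 1448 to 1758 and the ESC lines 1646 to 1808. SSC.1 held the highest of the SSC values for the pluripotency markers, although Nanog was under 0.05 FPKM in every SSC line. Over 8 markers of differentiating spermatogonia and meiosis, Stra8 and Sohlh2 among them, the SSC lines had 111 to 257 FPKM and the MASC lines 15.5 to 55.3. Of these 8, 7 had a mean of at least 1 FPKM in SSC lines and 5 in MASC lines. The HSC cultures carried mast cell markers (20457 to 25978 FPKM summed over 6 genes) beside the HSC markers (1058 to 1419 over 10). The MEF sample had 99.0 FPKM over the same 10 HSC markers, with 8 of them at 1 FPKM or more, against 14.7 to 23.5 FPKM in SSC lines. The sum of 12 fibroblast markers was 33.3 to 898 FPKM in SSC lines and 23.8 to 1015 in MASC lines, against 5825 in MEFs. All 12 had a mean of at least 1 FPKM in SSC and in MASC lines. Of the HSC cultures, HSC.1 had a fibroblast marker sum of 7.15 FPKM and HSC.2 of 399. The libraries also differed in the small RNA Rn4.5s, which was at 1.95 and 2.24 FPKM in SSC.2 and SSC.4 but at 211 and 759 in SSC.1 and SSC.3. It was over 50 in MASC.1, MASC.2 and ESC.1 and under 10 in the other MASC, ESC and iPS lines, while HSC.2 lay between at 31.0. The cut at 50 FPKM was set after the values were seen, and no label says how these libraries differ. At 1 FPKM the coverage was 1.26 to 3.23 reads per base, so a value under 0.1 rests on few reads.

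The 77 genes were moderately expressed. The median of their means was 14.6 FPKM in SSCs (from 5.73 to 375), 12.7 in MASCs (from 5.72 to 132), 14.8 in ESCs and 15.1 in iPS cells, against 0.185 in HSCs and 0.0820 in MEFs. Of the 77 genes, 34 reached 5 FPKM in all 14 SSC, MASC, ESC and iPS lines and 65 reached 1 FPKM in all 14, whereas 12 were under 1 FPKM in at least 1 line. In the 3 somatic samples 68 genes were under 1 FPKM throughout and 9 reached 1 FPKM in 1 HSC culture, which was HSC.2 for each. Of the genes whose values are given by sample, Stag3 and Tcf7 were among the 9, at 1.48 and 1.18 FPKM in HSC.2. The mean was highest in SSCs for 29 genes, in ESCs for 23, in iPS cells for 13 and in MASCs for 12. A shared presence did not mean an equal level: the 4 means lay within 2-fold for 28 genes, and the median ratio of the highest to the lowest mean was 2.42, against 1.75 over the 6604 genes. Those 6604 genes were not matched to the 77 for level and were not held to the ceiling in HSCs and MEFs.

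**Figure D1:**
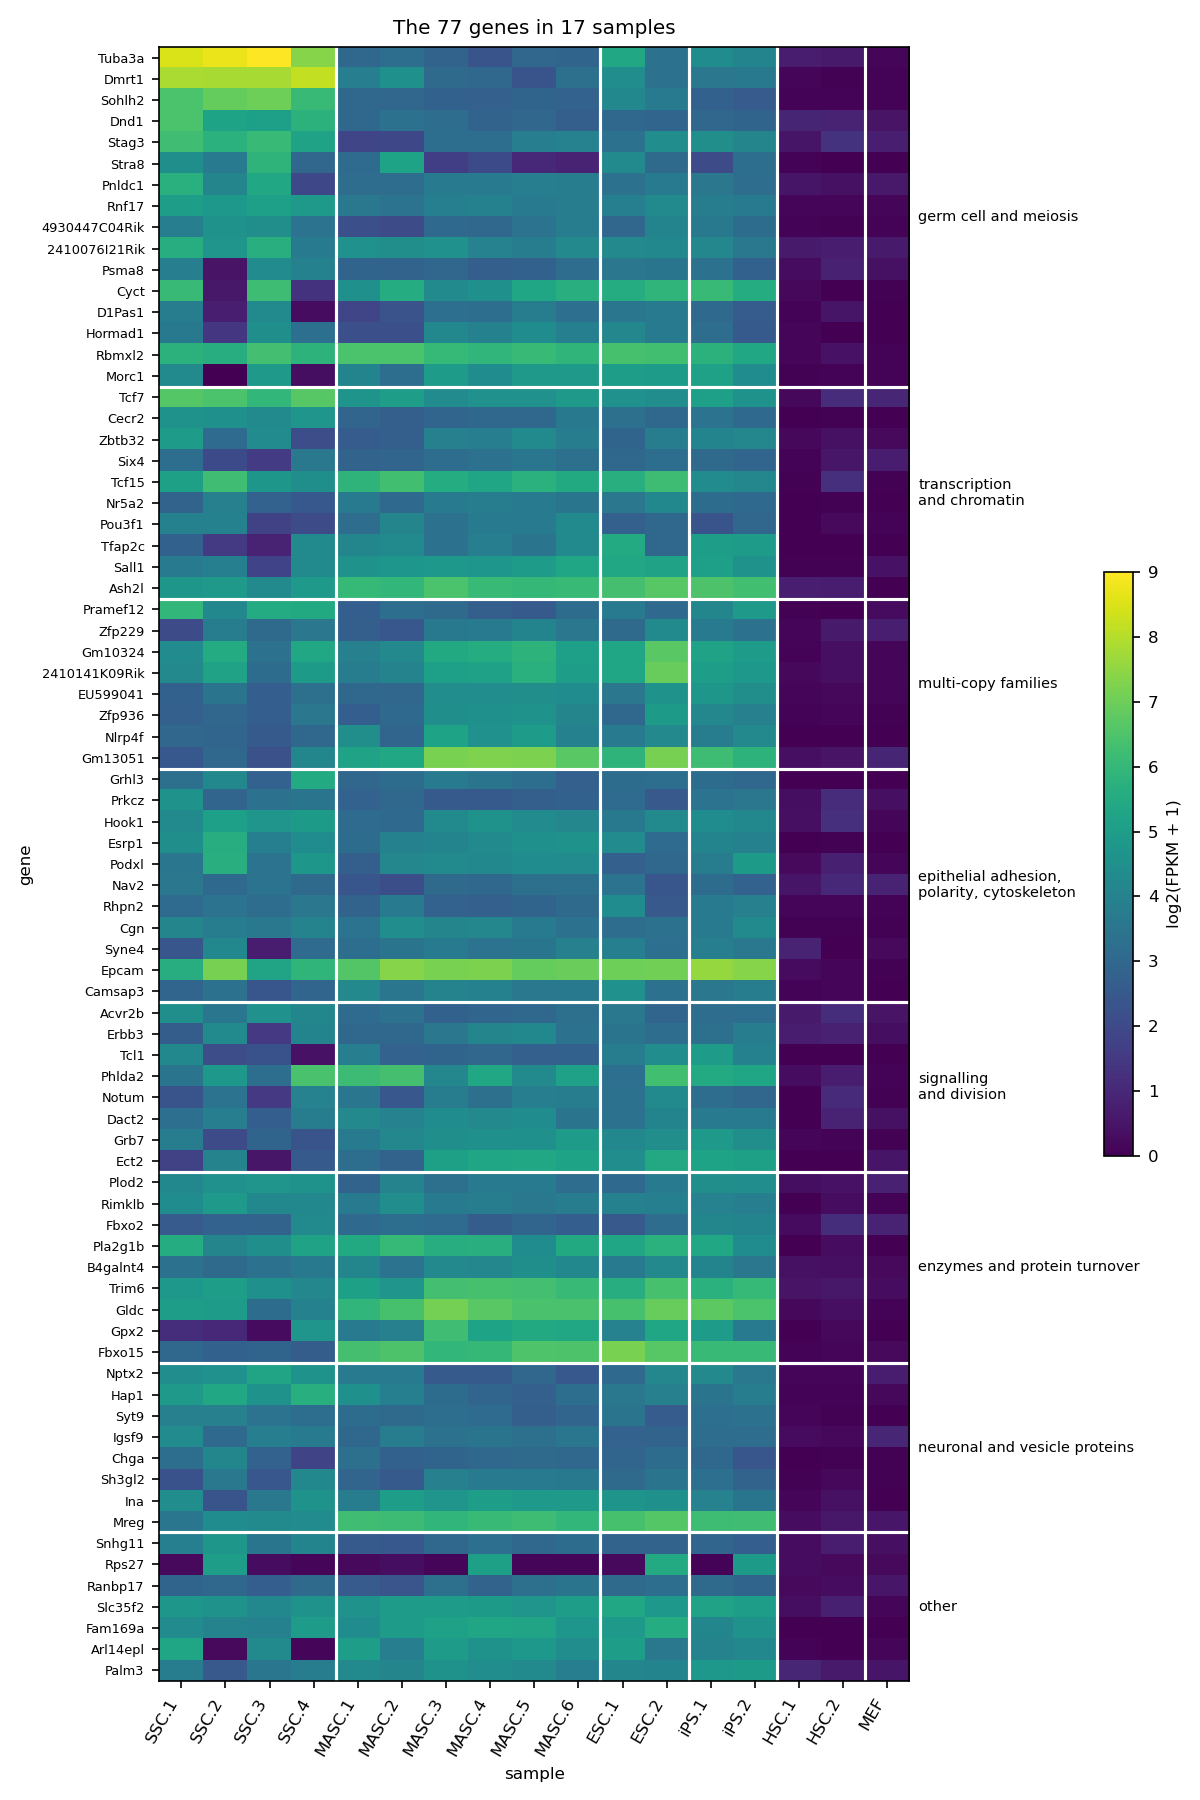
Each row is 1 of the 77 genes, grouped by role, and each column is 1 of the 17 samples; the colour gives log2(FPKM + 1) from 0 (dark) to 9 (yellow). The columns of SSC, MASC, ESC and iPS lines are filled down nearly all rows and the 3 HSC and MEF columns are dark, as the rule required. Some genes are dark in some of the SSC lines, among them Morc1, Cyct, Arl14epl, D1Pas1 and Gpx2. Rps27 is dark in most SSC and MASC lines and in ESC.1 and iPS.1.

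The 77 genes were sorted into roles by hand, and the share of each role among all genes was not counted. Among these roles, genes of the germ line and meiosis formed the largest group, with 16 of the 77, and 11 of these 16 had their highest mean in SSCs. They cover germ cell transcription (Dmrt1, Sohlh2), meiotic chromosome structure and recombination (Stag3, Hormad1, 2410076I21Rik, which is Rec114, and 4930447C04Rik, which is Six6os1), the entry into meiosis (Stra8), the control of germ cell RNA and of transposons (Dnd1, Rnf17, Pnldc1, Morc1, the splicing regulator Rbmxl2 and the RNA helicase D1Pas1) and testis forms of common proteins (the tubulin Tuba3a, the proteasome subunit Psma8 and the cytochrome c Cyct). The median of their means was 31.8 FPKM in SSCs and 9.52 in MASCs.

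Promoter sequences of 6 of these genes are shown because they carry, or lack, the E2F-type and E-box words that recur at germ cell promoters. Each window runs from 250 bases before to 50 bases after the start, 5′ to 3′ on the strand of the gene, and was read from RefSeq on GRCm38.p6. Capitals mark E2F-type words (TTCCCGC or TCCCGCC on either strand, overlapping matches joined) and E-boxes (CACGTG). The windows are Hormad1 on the plus strand at chr3:95559427-95559726, Stag3 on the plus strand at chr5:138280259-138280558, Rbmxl2 on the plus strand at chr7:107209195-107209494, Tuba3a on the minus strand at chr6:125286032-125286331, Cyct on the minus strand at chr2:76360404-76360703 and D1Pas1 on the plus strand at chr1:186967166-186967465.
Hormad1: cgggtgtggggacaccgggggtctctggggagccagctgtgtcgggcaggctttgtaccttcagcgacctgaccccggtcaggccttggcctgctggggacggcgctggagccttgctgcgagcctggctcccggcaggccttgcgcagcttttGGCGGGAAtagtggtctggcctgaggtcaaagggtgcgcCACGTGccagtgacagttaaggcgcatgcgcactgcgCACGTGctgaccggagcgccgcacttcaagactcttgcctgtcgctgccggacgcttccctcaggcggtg
Stag3: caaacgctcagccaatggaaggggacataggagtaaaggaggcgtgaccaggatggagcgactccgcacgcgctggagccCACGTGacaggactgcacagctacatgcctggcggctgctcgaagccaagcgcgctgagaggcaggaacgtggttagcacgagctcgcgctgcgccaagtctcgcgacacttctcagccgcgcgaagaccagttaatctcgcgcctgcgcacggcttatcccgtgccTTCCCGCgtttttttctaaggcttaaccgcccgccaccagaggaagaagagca
Rbmxl2: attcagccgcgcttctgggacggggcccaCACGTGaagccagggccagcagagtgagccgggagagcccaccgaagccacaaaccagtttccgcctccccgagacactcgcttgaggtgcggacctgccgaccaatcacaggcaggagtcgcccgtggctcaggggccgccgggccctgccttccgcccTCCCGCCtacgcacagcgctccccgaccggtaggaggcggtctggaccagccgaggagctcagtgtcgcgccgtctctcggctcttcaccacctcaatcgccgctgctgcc
Tuba3a: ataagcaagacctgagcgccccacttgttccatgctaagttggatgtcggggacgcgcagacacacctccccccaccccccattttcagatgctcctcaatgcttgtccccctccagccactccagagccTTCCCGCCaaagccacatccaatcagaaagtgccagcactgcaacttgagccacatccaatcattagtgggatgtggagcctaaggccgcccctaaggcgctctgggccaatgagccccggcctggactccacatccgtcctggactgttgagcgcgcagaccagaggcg
Cyct: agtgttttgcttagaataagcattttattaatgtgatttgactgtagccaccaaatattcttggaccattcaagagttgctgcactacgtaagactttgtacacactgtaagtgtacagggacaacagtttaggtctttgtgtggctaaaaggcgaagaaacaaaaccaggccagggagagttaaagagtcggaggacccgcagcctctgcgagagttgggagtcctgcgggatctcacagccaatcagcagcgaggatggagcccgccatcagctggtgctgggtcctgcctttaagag
D1Pas1: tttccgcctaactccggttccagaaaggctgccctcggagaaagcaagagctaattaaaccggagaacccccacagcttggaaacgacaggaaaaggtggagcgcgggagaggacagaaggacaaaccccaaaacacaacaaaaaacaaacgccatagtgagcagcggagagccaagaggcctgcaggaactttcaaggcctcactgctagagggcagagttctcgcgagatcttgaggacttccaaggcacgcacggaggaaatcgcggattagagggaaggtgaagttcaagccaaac

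Hormad1 held 1 E2F-type word and 2 E-boxes, Stag3 and Rbmxl2 held 1 of each, Tuba3a held the E2F-type word alone, and Cyct and D1Pas1 held none of these letters. CpG dinucleotides numbered 30 in the Stag3 window, 29 in Rbmxl2 and 24 in Hormad1, against 15 in D1Pas1, 12 in Tuba3a and 8 in Cyct. Over the 53 of 77 genes that matched the promoter table, an E2F-type word was in 31.3% of 67 windows and an E-box in 11.9%. These shares were close to the 27.5% and 11.5% of the 6404 windows of genes with at least 5 FPKM in all 4 cell types, and above the 13.3% and 7.15% of all 32851 windows. Of the octamer ATGCAAAT there was no match in the 67 windows, against 1.12% of the expressed and 1.74% of all windows. The Tfap2-type word GCCNNNGGC was in 20.9% of the windows against 25.9% and 16.6%, the Nrf1 word CGCATGCG in 5.97% against 5.07% and 1.87%, and the Yy1-type word AAGATGGC in 2.99% against 5.89% and 2.75%. By role, an E2F-type word was in 4 of 9 matched germ line genes, 6 of 8 epithelial, 4 of 7 neuronal and vesicle, 3 of 6 multi-copy, 1 of 5 transcription and chromatin, 1 of 6 other, 0 of 7 enzyme and 0 of 5 signalling genes.

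The comparison of MASC with SSC lines asks how far the levels of the shared genes differed between these lines. The rule set a floor under both means but no difference between them. Genes that fell or rose are those lower or higher in MASC than in SSC lines, as no conversion was followed over time. SSC and MASC lines also grew in different media, so cell type and medium cannot be told apart. Tuba3a, Dmrt1, Sohlh2, Stag3, Dnd1 and Rnf17 of the germ line fell, Fbxo15, Gm13051, Gldc and Mreg rose, and most of the 77 did not pass the test in either direction. A transcript was called when its Benjamini-Hochberg adjusted p from limma was under 0.05 and its difference in log2(FPKM + 1) was at least 1 either way. On this scale 12 of the 77 were higher and 14 lower in MASC lines. In whole cultures such as these, fewer cells that express a gene and less RNA per cell cannot be told apart. Over all 32661 transcripts 6.04% were called higher and 9.6% lower, and over the 6604 genes 10.3% and 10.5%. The genes that rose were 15.6% of the 77 and those that fell 18.2%. All 14 lower genes and 6 of the 12 higher genes had no overlap between the 6 MASC and 4 SSC lines, where 8.42% and 5.3% of all transcripts did so. The 6 were 7.79% of the 77, against 9.13% of the 6604 genes that were higher without overlap, and the 14 were 18.2%, against 9.6% lower without overlap. The median difference of the 77 was 0.29, against −0.0048 over all transcripts and −0.0033 over the 6604 genes. Leaving out 1 line in turn kept 17 of the 26 calls, and Acvr2b, Ect2, Epcam, Gpx2, Nlrp4f, Plod2, Sall1, Snhg11 and Trim6 were lost without at least 1 line, with 7 genes higher without SSC.3. With strain as a block 6 were higher and 14 lower, and 18 of the 26 calls were kept. Within the libraries with Rn4.5s over 50 FPKM alone 3 were higher and 8 lower, and 8 of the 26 calls were kept. In those under 50 FPKM 21 were kept.

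The largest falls were in the germ line. Tuba3a, an alpha-tubulin of the testis at chr6:125228292-125236060 on mm9, was at 362, 420.4, 556 and 162 FPKM in SSC.1 to SSC.4 and at 7.03, 8.54, 6.37, 4.03, 6.89 and 6.55 in MASC.1 to MASC.6. ESC lines had 40.7 and 9.51 and iPS lines 19.6 and 15.6, with 0.651 and 0.579 in HSCs and 0.0920 in MEFs. It was the highest of the 77 in SSCs, and every SSC line was far above every MASC line (MASC minus SSC log2 difference −5.53 ± 0.43 SE, limma adjusted p = 1.26e-05). Reads of Tuba3a and of its near-identical copy Tuba3b could be lost or shared in the mapping, so its level is uncertain.

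Dmrt1, a DM-domain transcription factor that male germ cells need (chr19:25580196-25678818), was at 231, 223, 224 and 287 FPKM in SSC lines. MASC lines had 13.3, 21.7, 7.74, 7.00, 4.07 and 9.01, ESC lines 20.3 and 9.25, iPS lines 10.99 and 11.6, and HSCs and MEFs at most 0.122. Of the 6 genes highest in SSCs it was the most even between the SSC lines, and it fell in MASCs by 4.56 ± 0.39 (limma adjusted p = 2.2e-05). Sohlh2, a bHLH factor of spermatogonial differentiation (chr3:54985966-55013879), was at 87.1, 116, 128 and 67.2 in SSC lines, at 7.00, 6.88, 6.02, 5.83, 6.44 and 6.05 in MASC lines, at 17.4 and 12.3 in ESC lines and at 5.93 and 4.99 in iPS lines. Its 6 MASC values spanned little more than 1 FPKM, all below both ESC lines (MASC minus SSC −3.73 ± 0.17, limma adjusted p = 6.37e-07).

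Stag3, the cohesin subunit of meiotic chromosomes (chr5:138721737-138753621), was at 74.9, 52.2, 68.0 and 35.7 FPKM in SSC lines and at 2.71, 2.87, 8.60, 8.45, 13.3 and 14.7 in MASC lines. ESC lines had 9.13 and 20.1, iPS lines 20.6 and 16.2, HSCs 0.418 and 1.48 and MEFs 0.699. The MASC lines were all lower than the SSC lines (−2.80 ± 0.48, limma adjusted p = 0.00166), and the Oct4-GFP lines MASC.1 and MASC.2 were lowest. Dnd1, an RNA-binding protein that primordial germ cells need to survive (chr18:36923325-36925868), was at 86.8, 36.6, 32.8 and 53.4 in SSC lines, at 5.61 to 9.51 in MASC lines and at 6.54 to 7.08 in the ESC and iPS lines (−2.60 ± 0.25, limma adjusted p = 5.12e-05). Pramef12, of the multi-copy PRAME family (chr4:143981577-143998367), was at 60.7, 17.4, 45.0 and 43.6 in SSC lines, at 4.87 to 8.54 in MASC lines, at 11.7 and 7.45 in ESC lines and at 16.6 and 28.0 in iPS lines (−2.37 ± 0.32, limma adjusted p = 0.00037). The lowest SSC line, SSC.2, was at about the same Pramef12 level as the lower iPS line and above every MASC line.

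**Figure D2:**
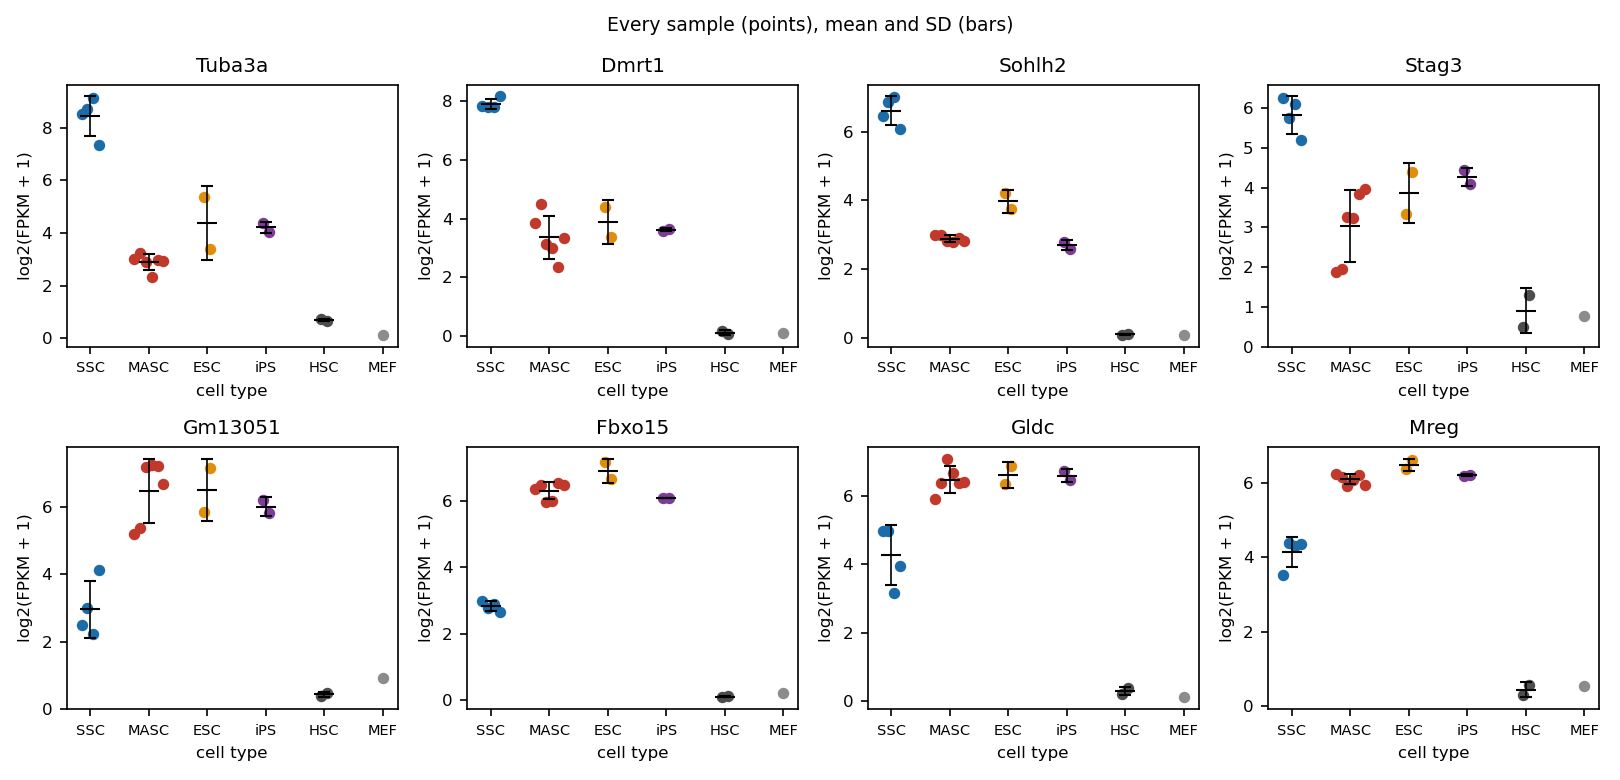
Each panel is 1 gene, each point 1 sample, on log2(FPKM + 1) by cell type, with the mean and SD as bars (the MEF group has 1 sample). The upper row holds 4 genes that fell from SSC to MASC lines, of which Tuba3a fell most (−5.53), and the lower row 4 that rose, of which Gm13051 rose most (3.52); none of the 8 overlap between SSC and MASC lines.

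Of the 6 germ line genes called lower, Rnf17, a tudor protein of male germ cells, had the smallest difference. It was at 31.0, 26.6, 33.1 and 27.6 FPKM in SSC lines, at 11.2, 9.71, 13.9, 14.7, 12.3 and 13.2 in MASC lines, at 13.9 and 18.1 in ESC lines and at 13.2 and 11.7 in iPS lines, with no overlap between SSC and MASC lines (−1.19 ± 0.12, limma adjusted p = 6.39e-05). None of the 16 germ line genes was called higher. Stra8, which retinoic acid induces at the entry into meiosis, was at 21.3, 12.1, 57.0 and 6.75 in SSC lines and at 7.83, 36.6, 2.16, 3.02, 0.986 and 0.835 in MASC lines, with 18.8 and 7.65 in ESC lines and 3.13 and 8.60 in iPS lines. The Stra8 lines overlapped through SSC.4, MASC.1 and MASC.2, and the difference did not pass (−1.93 ± 0.91, limma adjusted p = 0.145). Rbmxl2, an RNA-binding protein of the meiotic splicing programme, was at 54.6, 47.3, 78.4 and 55.3 in SSC lines, 86.3, 87.3, 64.8, 59.4, 65.7 and 59.0 in MASC lines, 83.0 and 77.3 in ESC lines and 54.2 and 40.8 in iPS lines. It was thus high in every one of the 14 lines and overlapped between SSC and MASC lines (0.26 ± 0.16, limma adjusted p = 0.281), with 0.364 FPKM at most in the somatic samples. Pnldc1, which trims piRNA ends, 2410076I21Rik, 4930447C04Rik and Psma8 had differences of −0.68, −0.67, −1.14 and −0.24 that were not called. Morc1, Cyct, D1Pas1 and Hormad1 had differences the other way, of 2.01 ± 0.97, 1.42 ± 1.13, 0.67 ± 0.82 and 0.27 ± 0.67, that were not called either.

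Fbxo15, an F-box gene that Oct4 and Sox2 activate in ESCs (chr18:85104417-85150784), gave the clearest rise. It was at 6.95, 5.87, 6.49 and 5.35 FPKM in SSC lines, at 81.2, 89.1, 61.2, 63.4, 91.8 and 88.2 in MASC lines, at 143 and 99.9 in ESC lines and at 67.5 and 67.6 in iPS lines, with 0.159 at most in the somatic samples. SSC lines thus lay narrowly above the floor of 5, and MASC lines rose by 3.47 ± 0.15 (limma adjusted p = 4.52e-07). Gm13051, a zinc-finger gene also named Zfp987 (chr4:146064713-146094024), was at 4.63, 6.99, 3.70 and 16.6 in SSC lines, at 35.8, 40.9, 145, 153, 147 and 102 in MASC lines, at 57.3 and 142 in ESC lines and at 73.6 and 55.2 in iPS lines. Gm13051 had the largest increase of the 77 (3.52 ± 0.57, limma adjusted p = 0.00118), and its reads are uncertain because reads that map to several members of the family were excluded.

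Gldc, the glycine decarboxylase of the one-carbon pathway (chr19:30172931-30249931), was at 30.9, 30.6, 7.99 and 14.3 FPKM in SSC lines, at 59.6, 82.8, 137, 102, 83.7 and 84.0 in MASC lines, at 81.5 and 118 in ESC lines and at 106 and 87.4 in iPS lines (2.22 ± 0.38, limma adjusted p = 0.00156). Mreg, melanoregulin, a protein of vesicle transport (chr1:72205807-72258881), was at 10.6, 19.9, 18.9 and 19.4 in SSC lines and at 59.8 to 74.3 in MASC lines, with 82.0 and 96.8 in ESC and 72.5 and 74.0 in iPS lines (1.96 ± 0.16, limma adjusted p = 2.13e-05). For both genes every MASC line was above every SSC line. Sall1, a zinc-finger factor (chr8:91551143-91568061), was at 11.8, 13.9, 2.48 and 18.9 in SSC lines and at 23.0, 25.7, 26.5, 25.4, 29.8 and 37.7 in MASC lines, with 39.8 and 35.2 in ESC lines and 32.9 and 23.0 in iPS lines (1.42 ± 0.42, limma adjusted p = 0.0281). The 6 higher genes whose lines overlapped were Gpx2, a glutathione peroxidase (3.20 ± 0.86), Ect2, an exchange factor of cytokinesis (2.31 ± 0.77), the receptor adaptor Grb7 (1.61 ± 0.34), Nlrp4f of the NLRP family (1.47 ± 0.40), the ubiquitin ligase Trim6 (1.18 ± 0.39) and Epcam (1.05 ± 0.32).

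The highest SSC levels outside the germ line group belonged to Tcf7 and Epcam. Tcf7, a transcription factor of Wnt signalling (chr11:52066106-52095752), was at 96.7, 85.7, 61.6 and 100.1 FPKM in SSC lines, at 24.2, 31.0, 19.1, 22.5, 22.5 and 28.4 in MASC lines, at 22.7 and 20.5 in ESC lines and at 33.2 and 23.6 in iPS lines, without overlap between SSC and MASC lines (−1.76 ± 0.16, limma adjusted p = 3.73e-05). Epcam, the epithelial adhesion molecule (chr17:88035319-88050467), was at 48.3, 140.3, 37.3 and 57.9 in SSC lines, at 95.4, 163, 146, 149, 116 and 121 in MASC lines, at 129.7 and 135 in ESC lines and at 188 and 162 in iPS lines. SSC.2 reached the MASC range for Epcam and the other SSC lines did not (limma adjusted p = 0.0337). The remaining lower genes were the pentraxin Nptx2 (−1.72 ± 0.35), the huntingtin partner Hap1 (−1.69 ± 0.35), the chromatin remodelling subunit Cecr2 (−1.48 ± 0.16), Snhg11 (−1.14 ± 0.25), the activin receptor Acvr2b (−1.08 ± 0.22) and the lysyl hydroxylase Plod2 (−1.06 ± 0.23).

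**Figure D3:**
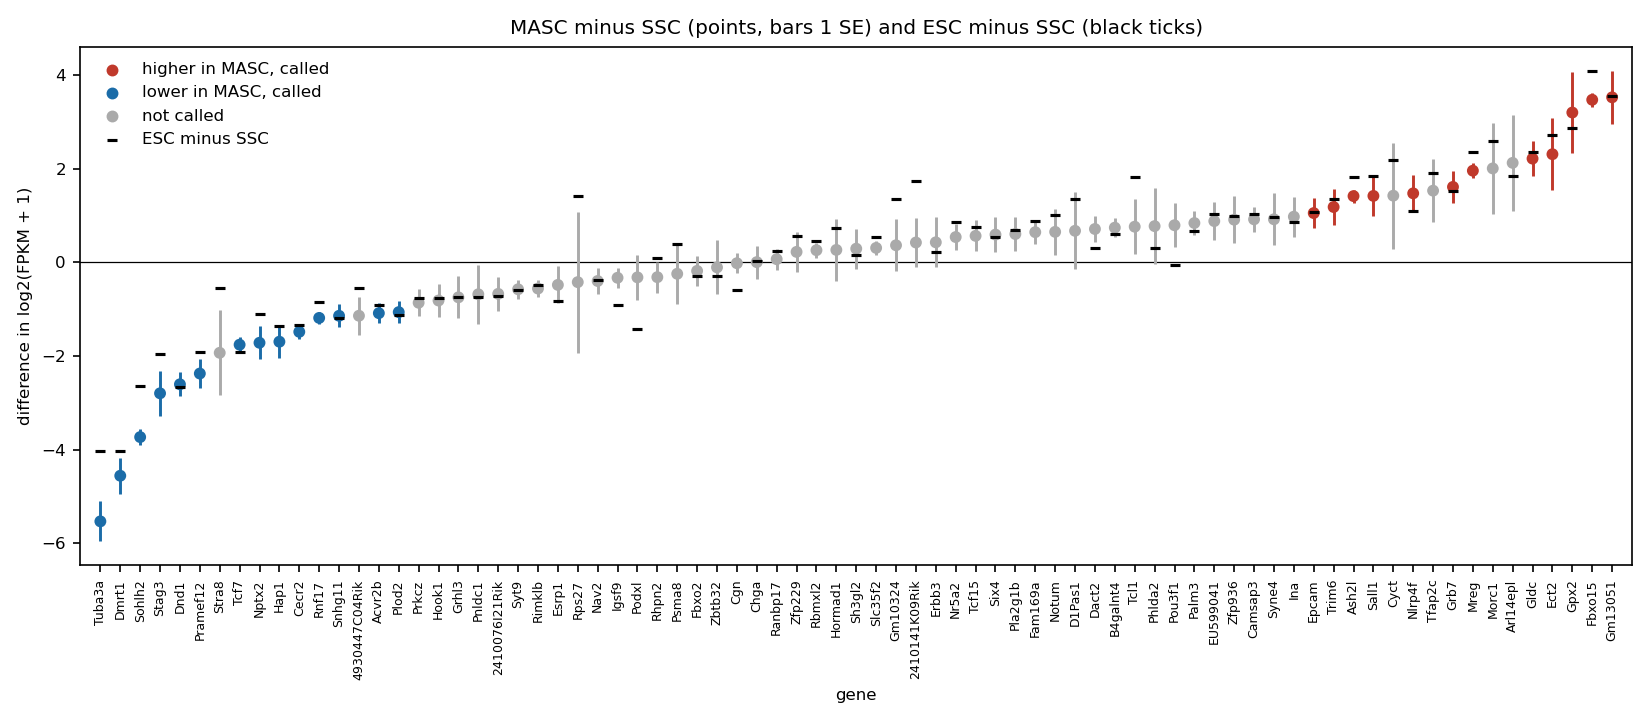
Points give the MASC minus SSC difference of each of the 77 genes in log2(FPKM + 1) with bars of 1 SE, coloured where called, and black ticks give ESC minus SSC. The genes run from Tuba3a at −5.53 to Gm13051 at 3.52, and the ticks lie within about 1 unit of most points; both differences use the same SSC lines.

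In the other roles genes were called in both directions, except that none of the epithelial genes was lower and none of the 7 others was higher. Among 10 transcription and chromatin genes Sall1 and Ash2l were higher and Tcf7 and Cecr2 lower, while Nr5a2, Tfap2c, Tcf15, Pou3f1, Six4 and Zbtb32 were not called. Of 11 genes of epithelial adhesion, polarity and cytoskeleton, Epcam alone was called, and the others were the tight junction protein Cgn, the splicing regulator Esrp1, the transcription factor Grhl3, the polarity kinase Prkcz, the sialomucin Podxl, the microtubule proteins Camsap3, Hook1 and Nav2, the scaffold Rhpn2 and the nuclear envelope linker Syne4. Grb7 and Ect2 were higher and Acvr2b lower among 8 signalling and division genes, where the Wnt antagonists Notum and Dact2, the receptor Erbb3, the Akt cofactor Tcl1 and the imprinted Phlda2 were not called. Of 9 enzyme and protein turnover genes, Fbxo15, Gldc, Gpx2 and Trim6 were higher and Plod2 lower, with B4galnt4, Fbxo2, Pla2g1b and Rimklb not called. The 8 neuronal and vesicle genes had Mreg higher and Hap1 and Nptx2 lower, next to Chga, Igsf9, Ina, Sh3gl2 and Syt9. Nlrp4f and Gm13051 were higher and Pramef12 lower among 8 genes of multi-copy families, where Zfp229, Zfp936, EU599041, Gm10324 and 2410141K09Rik were not called. The 7 others were Arl14epl, Fam169a, Palm3, Ranbp17, Rps27, Slc35f2 and Snhg11.

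The 4 uncalled genes with the smallest differences fell into even and uneven ones. Cgn was at 16.2, 13.0, 11.3 and 15.3 FPKM in SSC lines, at 9.84, 20.5, 16.0, 17.05, 11.9 and 9.57 in MASC lines, at 8.32 and 9.41 in ESC lines and at 12.5 and 18.2 in iPS lines (−0.02 ± 0.21). Ranbp17, an importin-like protein, was at 6.44, 7.09, 5.42 and 7.65 in SSC lines and at 4.96, 4.16, 9.12, 6.32, 9.09 and 10.1 in MASC lines, with 6.51 to 8.48 in the ESC and iPS lines (0.07 ± 0.23). These 2 genes varied little between SSC lines. Chga, the granule protein chromogranin A, was at 8.61, 16.5, 6.11 and 2.63 in SSC lines and at 5.97 to 9.02 in MASC lines, with 4.30 to 8.12 in the ESC and iPS lines (0.0048 ± 0.35). Zbtb32, a zinc-finger repressor, was at 30.0, 7.91, 19.5 and 3.32 in SSC lines and at 5.17, 5.54, 14.3, 13.5, 18.4 and 13.1 in MASC lines, with 6.42 and 12.9 in ESC lines and 15.7 and 17.1 in iPS lines (−0.11 ± 0.58), so the means were close but the lines spread widely, in that SSC.1 and SSC.3 were high and SSC.2 and SSC.4 low. In the libraries with Rn4.5s under 50 FPKM alone, the Zbtb32 difference was 1.34.

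In ESC lines Fbxo15, Gm13051 and Gldc were again above SSC lines and Tuba3a, Dmrt1, Dnd1 and Sohlh2 below them. This comparison shares the SSC lines with the one above and rests on 2 ESC lines. Of the 77 genes 7 were called higher in ESCs (background 4.96% of all transcripts, 8.34% of the 6604 genes) and 9 lower (background 8.75% and 10.1%). The higher ones were Fbxo15 (4.08 ± 0.20), Gm13051 (3.55 ± 0.77), Gldc (2.36 ± 0.51), Mreg (2.35 ± 0.22), Sall1 (1.84 ± 0.56), Ash2l (1.81 ± 0.19) and Grb7 (1.52 ± 0.46). Lower were Tuba3a (−4.04 ± 0.57), Dmrt1 (−4.03 ± 0.52), Dnd1 (−2.67 ± 0.34), Sohlh2 (−2.64 ± 0.23), Tcf7 (−1.92 ± 0.22), Pramef12 (−1.92 ± 0.43), Cecr2 (−1.35 ± 0.22), Snhg11 (−1.19 ± 0.33) and Plod2 (−1.12 ± 0.31). Stag3 was 1.95 ± 0.65 lower on the same scale without passing (limma adjusted p = 0.0594), and Rnf17 passed on p but by less than 2-fold (−0.85 ± 0.16, limma adjusted p = 0.00435). Without ESC.2, 4 genes were higher, and Gm13051, Gldc, Grb7, Sall1, Pramef12 and Snhg11 were no longer called, while without SSC.2, 11 were higher.

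Between pluripotent lines none of the 77 was called. MASC minus ESC gave 0 of 77 by limma (background 0.00306% of all transcripts higher and 0.0153% lower), with 4 genes at an unadjusted p under 0.05, against 2.92% of all transcripts. The lowest adjusted p was that of Sohlh2 (−1.09 ± 0.22, limma adjusted p = 0.524). iPS minus ESC also gave 0 (background 0.0551% higher and 0.0612% lower, and 0 and 0.0303% of the 6604 genes), with 9 genes at an unadjusted p under 0.05, against 8.03% of all transcripts, and again Sohlh2 had the lowest adjusted p (−1.28 ± 0.25, limma adjusted p = 0.0623). With 2 ESC lines these counts do not show that the levels were equal.

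Between lines of a cell type, the SD was larger against the mean for the 77 genes than over the 6604 expressed genes. The SD was a median of 48.2% of the mean over the 4 SSC lines for the 77 genes and 24.7% for the 6604, and over the 6 MASC lines 28.7% and 16.9%. An SD above 50% of the mean was found for 38 of the 77 in SSC lines (49.4%, against 9.19% of the 6604) and for 10 in MASC lines (13.0% against 3.97%). The 6604 genes include the 77 and were not matched to them for level. Some of the 77 met the floor in SSCs through few lines, such as Gpx2 through SSC.4 and Rps27 through SSC.2, which raises their SD.

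In SSC lines 4 genes were expressed in SSC.1 and SSC.3 and were at 1.47 FPKM or less in SSC.2 and SSC.4. This set was chosen after the values were seen, as the genes at 5 FPKM or more in the former pair and at least 5-fold above the latter, so it carries no test. Morc1, which silences transposons in male germ cells, was at 19.0, 0.0031, 27.5 and 0.266 FPKM in SSC.1 to SSC.4, and at 8.44 to 29.9 in the 6 MASC lines. Cyct, the cytochrome c of the testis, was at 68.3, 0.510, 73.2 and 1.47 in SSC lines and at 18.3 to 50.2 in MASC lines. HSCs and MEFs had at most 0.136 FPKM of Cyct and 0.0563 of Morc1, so SSC.2 was below the somatic samples for Morc1 and SSC.4 above them.

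Arl14epl was at 38.4, 0.173, 18.3 and 0.104 FPKM in SSC lines and at 13.3 to 32.2 in MASC lines, and D1Pas1 at 13.0, 0.684, 18.7 and 0.219 in SSC lines and at 2.64 to 13.0 in MASC lines. All 4 genes were at 2.64 FPKM or more in every MASC, ESC and iPS line. They were 5.19% of the 77 genes, where 0.212% of the 6604 genes and 0.349% of all transcripts had this pattern. The reverse pattern was in 0 of 77, 5 of 6604 and 43 of 32661. These shares carry no test either, because the cut was set after the values were seen. The 4 genes met the floor in SSCs through SSC.1 and SSC.3 alone. The pair SSC.1 and SSC.3 was also the pair with Rn4.5s over 50 FPKM, at 211 and 759 against 1.95 and 2.24, and had fibroblast marker sums of 375 and 898 against 33.3 and 96.8. The part of the Rn4.5s level and of the fibroblast marker sum in the pattern was not tested.

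**Figure D4:**
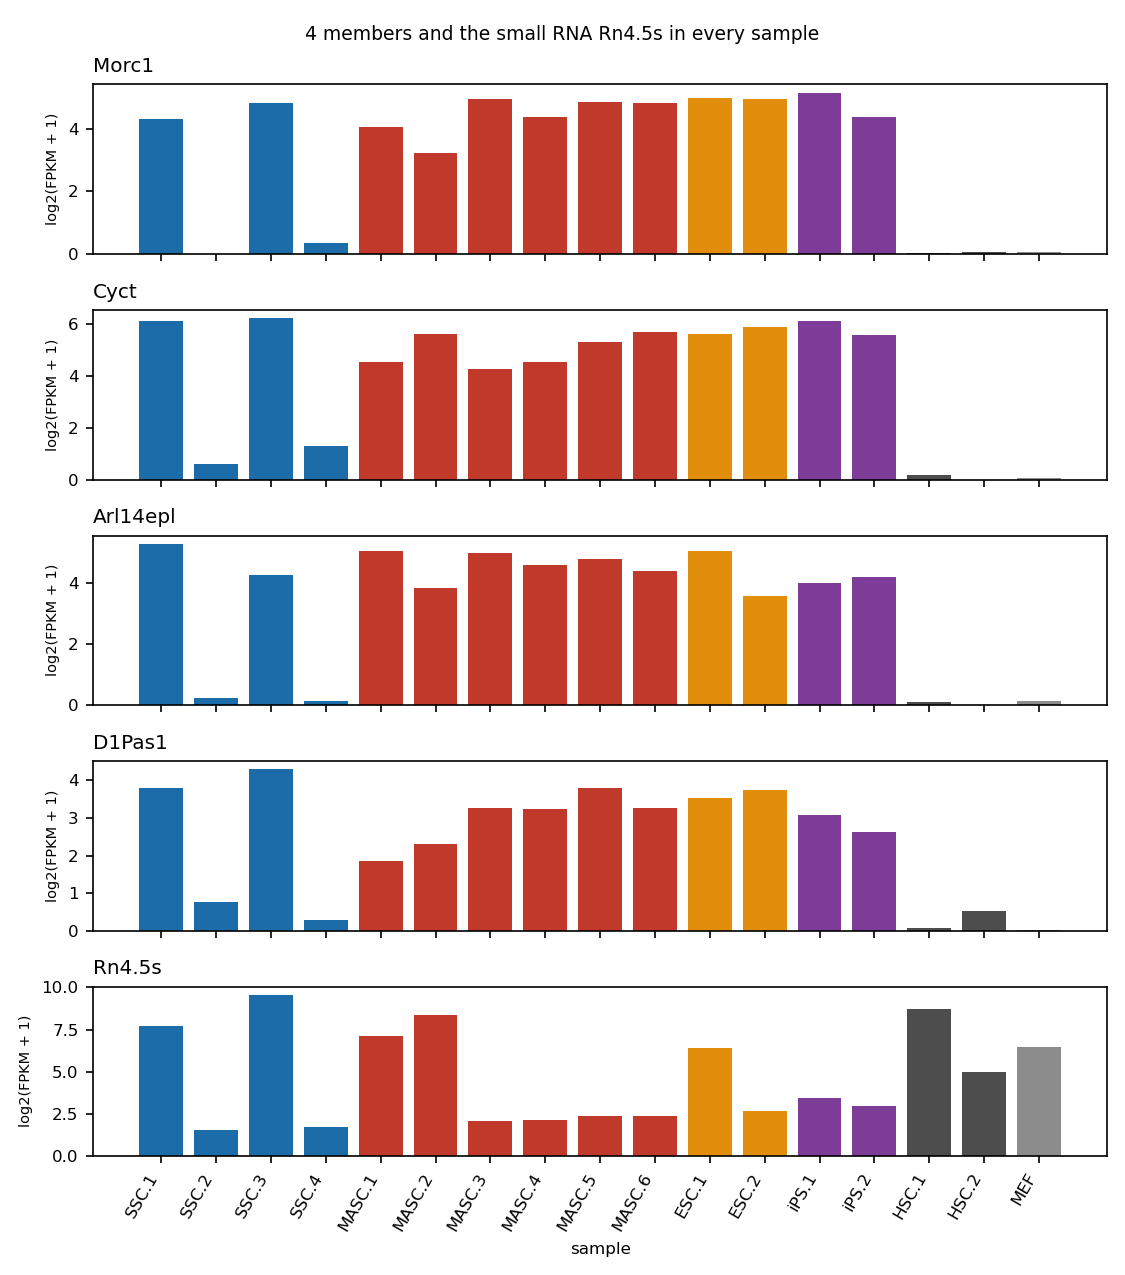
Bars give log2(FPKM + 1) of Morc1, Cyct, Arl14epl, D1Pas1 and the small RNA Rn4.5s in each of the 17 samples. The bars of the 4 genes are low in SSC.2 and SSC.4, the SSC lines with little Rn4.5s, at most 1.47 FPKM (Cyct in SSC.4). They are taller in SSC.1 and SSC.3 and in all MASC, ESC and iPS lines, with the lowest of these at 2.64 FPKM (D1Pas1 in MASC.1).

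Other genes split the SSC lines in their own ways. Hormad1, which marks the axes of meiotic chromosomes, was at 11.4, 1.67, 21.5 and 8.70 FPKM in SSC lines. Gpx2 was at 24.6 in SSC.4 and at 1.28 at most in the other SSC lines. Tfap2c, a factor of primordial germ cells, was at 5.87, 1.88, 0.830 and 18.3, and Tcl1 at 17.2, 3.36, 3.83 and 0.360, so that SSC.1 was the highest SSC line for Tcl1 and SSC.4 for Tfap2c. In MASC lines Tfap2c was at 9.61 to 18.4 and Tcl1 at 5.83 to 13.4, in ESC lines at 44.4 and 7.25 and at 12.6 and 20.1, and in iPS lines at 31.2 and 30.6 and at 29.7 and 14.3. Nr5a2, a nuclear receptor that acts on Oct4, was at 6.32, 14.2, 6.04 and 4.59 in SSC lines, at 7.36 to 12.6 in MASC lines, at 10.7 and 17.6 in ESC lines and at 8.003 and 7.41 in iPS lines. Esrp1 was at 21.4, 47.3, 13.6 and 19.8 in SSC lines, at 8.18 to 23.0 in MASC lines, at 19.2 and 7.96 in ESC lines and at 15.6 and 14.7 in iPS lines, with SSC.2 highest as for Epcam.

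The MASC lines were also compared by strain, which the rule did not use. Against the 4 other MASC lines the 2 Oct4-GFP lines had 15 of the 77 genes lower and 1 higher (limma over the 6 MASC lines), where 1.49% of all transcripts were lower and 1.1% higher, and 2.47% and 1.35% of the 6604 genes. The lower genes were 19.5% of the 77, and 6 of the 8 genes of multi-copy families were among them: Gm13051, Zfp936, EU599041, Gm10324, 2410141K09Rik and Zfp229. The others were Ect2, Hormad1, Gpx2, Stag3, Trim6, D1Pas1, Zbtb32, Hook1 and Sh3gl2. The reads of the multi-copy genes are uncertain, as for Gm13051. Fewer were called lower when 1 line was left out, namely 6 without MASC.1, 8 without MASC.2, 4 without MASC.3, 4 without MASC.4, 6 without MASC.5 and 9 without MASC.6. Ect2, Hormad1 and EU599041 were called in each of these.

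Ect2 was at 8.55 and 6.30 FPKM in MASC.1 and MASC.2 and at 33.7, 38.9, 40.0 and 35.9 in the other MASC lines (−2.19 ± 0.14, limma adjusted p = 0.0062), but with its transcripts summed it was −0.67 (limma adjusted p = 0.0252), under 2-fold and so no longer called. Summed in the same way 2410141K09Rik was −0.87 and was no longer called either (limma adjusted p = 0.0906). Hormad1 was at 3.61 and 3.56 against 17.4, 14.4, 19.8 and 13.9 (−1.91 ± 0.16, limma adjusted p = 0.0105), with 16.96 and 12.3 in ESC lines and 8.23 and 4.83 in iPS lines. Gm13051, with values given above, had a difference of −1.79 ± 0.20 (limma adjusted p = 0.0176). EU599041 had the smallest p, at 7.09 and 6.83 against 20.5, 20.4, 20.96 and 19.6 (−1.42 ± 0.03, limma adjusted p = 0.000803). Nptx2 was the gene called higher, at 12.1 and 12.3 against 4.81, 4.85, 6.90 and 4.57 (1.08 ± 0.17, limma adjusted p = 0.0321).

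The Oct4-GFP line ESC.1 was below the 129mix line ESC.2 for 14 of the 15 lower genes, all but Hormad1, whereas it was below for 47 of the 77. In SSC lines the Oct4-GFP line SSC.1 was below SSC.2, of the same strain, for 10 of the 15 (40 of 77). Rn4.5s over 50 FPKM and the Oct4-GFP strain fall on the same lines in MASCs and in ESCs and cannot be told apart there. The fibroblast marker sum was also higher in these lines, at 1015 and 124 FPKM in MASC.1 and MASC.2 against 23.8 to 61.5 in the others and at 381 in ESC.1 against 67.3, and its part was not tested.

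**Figure D5:**
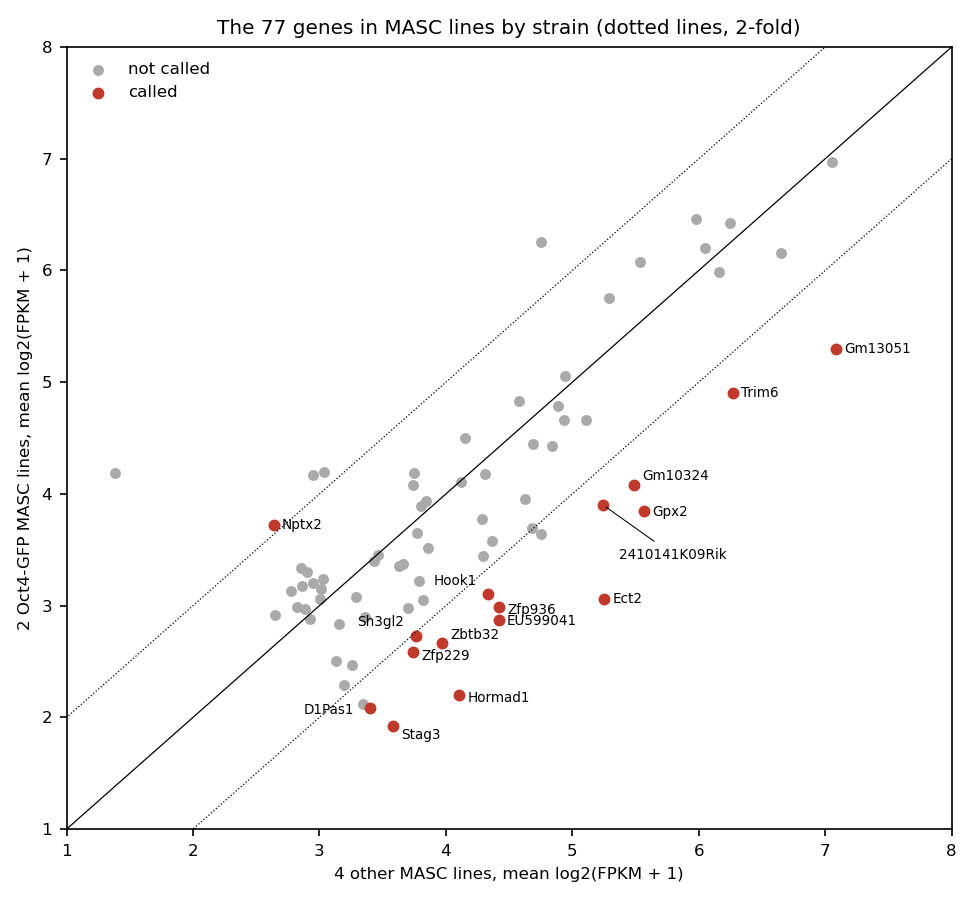
Each point is 1 of the 77 genes, with the mean log2(FPKM + 1) of the 4 other MASC lines on the x axis and of the 2 Oct4-GFP lines on the y axis, the solid line marking equal levels and the dotted lines 2-fold. The 15 genes called lower lie below the lower dotted line, Gm13051 and Trim6 highest on the scale, and Nptx2, called higher, lies at the upper dotted line; grey points past the dotted lines did not pass the test.

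The MASC minus SSC difference was also taken within the 2 strains that have both. The lines of these strains had entered the fit that called the genes, so the values are a description. Of the called genes, 11 of the 12 higher and 14 of the 14 lower ones had the same direction in both strains. Trim6 was the exception, at −0.02 in Oct4-GFP and 2.20 in 129mix. The sizes also differed for Ect2, at 0.18 and 2.68, and for Gldc, at 1.17 and 2.96. The test of the difference between strains called 0 of 77 (limma, background 0.171% higher and 0.0704% lower, and 0.0303% and 0.106% of the 6604 genes), with 17 genes at an unadjusted p under 0.05 against 10.8% of all transcripts, and the lowest adjusted p was 0.0721, for Nptx2. Only SSC.4 stood for the 129mix SSC lines. Without SSC.1 the test called 2 genes higher and 5 lower, and without SSC.2 it called 1 and 3.

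The rule took 1 transcript for each gene, and for 5 of the 77 genes the other transcripts were present in somatic samples. Summed over all transcripts of the gene, HSCs and MEFs had 22.3 and 13.998 FPKM of Ash2l, 9.29 and 3.11 of Ect2, 3.71 and 19.2 of Plod2, 13.3 and 13.6 of Rps27 and 1.35 and 1.36 of Nav2, so these 5 genes were not absent from the somatic samples. Ash2l, a core subunit of the H3K4 methyltransferases, had 3 transcripts. The one taken (NM_001080793) was at 25.9, 28.0, 18.5 and 27.8 FPKM in SSC lines, at 60.5 to 87.2 in MASC lines, at 79.8 and 100.2 in ESC lines and at 88.2 and 76.0 in iPS lines (1.41 ± 0.14, limma adjusted p = 5.57e-05). Another (NM_011791) was at 46.4, 24.4, 72.6 and 29.1 in SSC lines, at 7.93 to 14.8 in MASC lines, at 22.3 and 19.2 in HSCs and at 13.998 in MEFs. The split between the transcripts thus differed between SSC and MASC lines, while the sum did not pass (0.24 ± 0.15, limma adjusted p = 0.259).

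Ect2 likewise lost its MASC minus SSC call when its 3 transcripts were summed (0.85, limma adjusted p = 0.0551). Plod2 summed was −0.82 (limma adjusted p = 0.0128), less than 2-fold. Rps27, a ribosomal protein gene, met the rule through few lines: NM_027015 was at 32.4 FPKM in SSC.2, 34.0 in MASC.4, 44.0 in ESC.2 and 29.1 in iPS.2 and at 0.248 at most in the other 13 samples, while its second transcript was at 5.33 to 14.2 in all 17. How Cufflinks divides reads among overlapping transcripts bears on each of these values, and its part was not tested.

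The 77 genes overlap 4 wider lists of the same pathways, given here for MASC minus SSC. The lists were chosen with earlier results of these data known, so their counts are a description. Of 21 genes of germ cell RNA and retrotransposon control and of testis forms of common proteins, such as the tubulins Tuba3a and Tuba3b and the ribosomal Rpl39l and Rpl10l (Dnd1, Rnf17 and Tuba3a among the 77), 17 were lower in MASCs and Gtsf1l higher, with a median of −3.40, and 5 had a mean of at least 5 FPKM in all 4 cell types. Of 18 measured meiosis genes (Stag3, Hormad1 and Stra8 among the 77), 8 were lower and Hsf2bp higher, with a median of −1.10. Of 32 epithelial genes (Epcam, Esrp1 and Cgn among the 77), 17 were higher and Marveld2 and Ocln lower, with a median of 1.17. Of 24 pluripotency regulators (Nr5a2, Tcl1 and Tfap2c among the 77), 16 were higher and 0 lower by limma, with a median of 2.50. The median over all transcripts was −0.0048, and 6.04% of them were called higher and 9.6% lower. In ESC lines against the same SSC lines the counts were 1 higher and 15 lower, 1 and 6, 12 and 2, and 16 and 0. Over all transcripts 4.96% were higher and 8.75% lower in that comparison. Of the 6 genes of the epithelial and pluripotency lists that the rule took, Epcam alone was called. This count depends on the rule. Lin28a, Sall4, Utf1 and Zfp42 of the pluripotency list met the thresholds but were set aside by name, and of these Utf1 and Zfp42 were higher in MASCs. The floor of 5 FPKM in SSCs also kept out genes such as Nanog and Esrrb (SSC means of 0.0109 and 3.99 FPKM), which were higher in MASCs.

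The thresholds cut through a continuum. Just inside the floor of 5 FPKM were Pou3f1 (5.43 in iPS cells), Sohlh2 (5.46 in iPS cells) and Chga (5.68 in iPS cells), and just outside were Suv39h2 (4.86 in ESCs), Atf7ip2 (4.89 in iPS cells) and Got1l1 (4.89 in ESCs). Inside the ceiling of 1 were Igsf9 (0.934 in MEFs), Stag3 (0.950 in HSCs) and Tcf7 (0.952 in MEFs), and outside were Apoc1 (1.02 in HSCs), Krt18 (1.02 in MEFs) and Actr3b (1.05 in HSCs). On the genome the 77 genes lay on 18 chromosomes, 11 of them on chromosome 7 and 9 on chromosome 4. Neighbours within 250 kb were Zfp936 and EU599041 (21.9 kb apart), Rbmxl2 and Syt9 (160 kb) and 4930447C04Rik and Six4 (182 kb).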

How the data were processed

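RNA was sequenced from the 17 samples, and 1 table per sample was used. The authors deposited an FPKM for each RefSeq transcript, made per the study's methods by alignment to mm9 with TopHat2 2.0.11 and by Cufflinks with upper-quartile and GC normalization, after PCR duplicates and reads that map to more than 1 place were excluded. That exclusion lowers the values of genes with near-identical copies. The coverage that the authors deposited beside it, a signal in reads per base, was used for depth alone (1.26 to 3.23 at 1 FPKM). Read counts are not in these tables, and none were derived from them.

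Of 33262 rows per file, 601 further loci of a transcript were left out, and 32661 transcripts were kept. The 77 genes were found by script from the means of the cell types. Groups and strains were taken from the labels and the study's sample descriptions. Values were compared as log2(FPKM + 1), a pseudocount of 1 that understates the change of low transcripts, with limma 3.58.1 in R 4.3.3, without a filter on low values and with Benjamini-Hochberg adjustment over all transcripts. The SSC, MASC and ESC lines entered 1 fit of 12 lines, iPS minus ESC a fit of all 17 samples, and the strain comparisons the MASC lines or the SSC and MASC lines of Oct4-GFP and 129mix. The fit was first tested on simulated data. The genes and lists were chosen with earlier results of these data known. Values in every sample were given for the 6 genes highest in SSCs, the 6 with the largest rise and the 6 with the largest fall without overlap, the 4 uncalled genes with the smallest difference, up to 3 called in each further comparison and the genes in the lists, and in addition for some chosen after their values were seen (Morc1, Cyct, Arl14epl, D1Pas1, Rps27, EU599041, Nptx2 and Gpx2 in part).

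Positions of genes are on mm9 as in the files. Promoters came from a RefSeq table on GRCm38.p6, matched by symbol for 53 of the 77 genes; the others are 2410076I21Rik, Arl14epl, Ash2l, Camsap3, Cecr2, Dmrt1, Dnd1, Erbb3, Esrp1, Fbxo15, Gm13051, Grb7, Morc1, Notum, Nptx2, Plod2, Pnldc1, Podxl, Pou3f1, Pramef12, Psma8, Rnf17, Tcf15 and Tfap2c. Alternatives were other thresholds and transcript choices for the rule, a pseudocount of 0.1, a filter, quantile normalization, other call rules, blocks for strain and replicate number, and each line left out. After the data were seen, fits by the Rn4.5s level of the libraries and on transcripts summed per gene were added.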

Additional observations from a re-analysis of the deposited data

Results flagged for a closer look

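Within the SSC and the MASC lines, 13 of 154 groups of values had 1 line far from the rest by Dixon's gap ratio, 5 in SSC and 8 in MASC lines. The cuts give about 1 in 20 where values are normally spread, which was not checked for these FPKM values. Gpx2 and Rps27 also met the floor in SSCs through the flagged line, so the count carries no test. SSC.4 had 287 FPKM of Dmrt1 (others 223 to 231), 18.8 of Fbxo2 (4.98 to 6.34) and 24.6 of Gpx2 (0.195 to 1.28), the last being the line that brings the SSC mean of Gpx2 over the floor of 5. SSC.1 had 10.6 of Mreg (18.9 to 19.9), and SSC.2 had 32.4 of Rps27 (0.0868 to 0.245). Rps27 stood out in MASC.4 as well, at 34.0 (0.0856 to 0.248). MASC.1 had 5.57 of Podxl (17.01 to 19.9) and 13.4 of Tcl1 (5.83 to 6.81). MASC.2 had 12.3 of Rhpn2 (5.72 to 7.60), 20.4 of Rimklb (11.1 to 13.1) and 36.6 of Stra8 (0.835 to 7.83), which is above 3 of the 4 SSC lines. MASC.3 had 87.2 of the Ash2l transcript (60.5 to 67.7) and MASC.6 had 11.3 of Cecr2 (5.65 to 7.25).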

How the results depend on the processing

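The number of genes that meet the rule moved with its thresholds: 150 with a floor of 3 FPKM, 28 with a floor of 10, 123 with a ceiling of 2 and 34 when every 1 of the 14 lines had to reach 5. Leaving out each line in turn gave 71 to 86, the extremes coming from the HSC cultures. Of the 26 genes called between MASC and SSC lines, Dmrt1, Fbxo15, Gm13051, Sohlh2, Stag3 and Tuba3a were called under all 26 alternatives, and no called gene changed direction in any comparison. The counts in MASC minus SSC were 5 higher and 6 lower at a log2 difference of at least 2, 6 higher with strain as a block, and 3 higher and 8 lower in libraries with Rn4.5s over 50 FPKM. In libraries with Rn4.5s under 50 the uncalled Zbtb32 reversed from −0.11 to 1.34 (limma adjusted p = 0.0454). Leaving out each line gave 7 to 13 higher. In ESC minus SSC the counts were 4 higher and 4 lower at a log2 difference of at least 2, 14 higher on the unadjusted p, 13 higher with Rn4.5s as a term, 2 higher and 2 lower in libraries over 50 and 15 higher in those under 50, with 4 to 11 higher when each line was left out. On the unadjusted p 2 genes were lower in MASC than in ESC lines. In the Oct4-GFP comparison 3 genes were higher with a filter of 1 FPKM and 2 on transcripts summed per gene, and leaving out each MASC line gave 0 to 1 higher and 4 to 9 lower. The strain interaction gave 0 to 2 higher and 0 to 5 lower in the same way and could not be fitted without SSC.4, the only 129mix SSC line. Fewer samples enter the fits on 1 side of the Rn4.5s cut and without a line. For the other changes the cause was not tested.

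Replicate numbers recur across cell types, but same-numbered SSC and MASC lines did not deviate together (mean r −0.031 over 4 pairs, from −0.225 to 0.185), so they were not treated as pairs. With a replicate block 4 genes were higher and 10 lower in MASC minus SSC, with 14 of the 26 calls kept, and 4 higher and 6 lower in ESC minus SSC. The Oct4-GFP comparison lies within MASC lines, where the numbers cannot be a block. Values under 0.1 FPKM rest on few reads, so the depth limits what can be said of the lowest somatic levels and of Morc1 in SSC.2.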
